A study of Mus musculus with 22 samples.

Results

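Collagen genes were taken as the protein-coding genes whose symbol is Col, a number, the letter a and a number, so that each member encodes 1 collagen chain. The rule found 44 members among the 39179 genes counted in the mouse libraries, and none of the 44 had a count of 0 in every library. RNA was sequenced from WT and *Phf8* KO embryonic stem cells (ESCs, 2 WT and 2 KO libraries), neural progenitor cells (NPCs, 3 and 3), ventral striatum (STR, 3 and 3) and prefrontal cortex (PFC, 3 and 3). *Phf8* is an X-linked gene for a histone demethylase, and the KO allele lacks a pair of exons that encode part of its catalytic domain. The labels give a B6x129SvJ background for every group. By the labels, the ESCs came from blastocyst outgrowths and were kept on gelatin or feeder cells, the NPCs came from E16.5 embryos and grew as a monolayer, and the brain regions came from animals 2 months old. The study's methods describe the KO ESCs as clones of 1 male line made with Cre recombinase, and the labels do not say whether libraries of a group came from separate clones, cultures or animals. If they did not, the p-values below measure technical spread.

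Collagens are the main structural proteins of the extracellular matrix. Their chains wind around each other into a helix, often as fixed combinations of partner chains, so partner genes are usually read together. Fibrillar collagens (types I, II, III, V and XI) form the banded fibrils of connective tissue and are made in bulk by fibroblasts. Type IV collagens form the sheet of basement membranes, type VI forms beaded microfibrils near cells, and the type IX, XII and XVI chains sit on the surface of fibrils. The brain holds few fibrils, and its best known collagens are those of the vascular basement membrane and of the meninges, along with transmembrane collagens such as that of *Col25a1*, which neurons make. Before secretion, chains are hydroxylated and folded by enzymes and chaperones in the endoplasmic reticulum, and afterwards they are trimmed and cross-linked outside the cell.

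Stretches of DNA at the starts of a few members are given first, to show how unlike the starts of collagen genes are. *Col3a1* and *Col5a1* were each over 10 times higher in the second pair of ESC libraries than in the first, and the 250 bases upstream of their starts differ in make-up. The windows are from RefSeq on GRCm38.p6, plus strand, at chr1:45311288-45311537 and chr2:27886175-27886424. Capitals mark a TATA box (TATAAA) or a GC box (GGGCGG), on either strand. No match was found for a CCAAT box (CCAAT, either strand) in these windows. The last sequence is where *Col4a1* (minus strand) and *Col4a2* (plus strand), the main chains of basement membranes, start head to head at chr8:11312801-11312830. Capitals there mark the 22 bases that lie in the first exons of both genes.
Col3a1: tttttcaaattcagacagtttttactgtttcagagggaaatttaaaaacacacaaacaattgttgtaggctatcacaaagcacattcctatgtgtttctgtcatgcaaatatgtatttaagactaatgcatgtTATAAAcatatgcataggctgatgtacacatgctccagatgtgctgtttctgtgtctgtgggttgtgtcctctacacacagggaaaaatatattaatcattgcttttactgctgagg
Col5a1: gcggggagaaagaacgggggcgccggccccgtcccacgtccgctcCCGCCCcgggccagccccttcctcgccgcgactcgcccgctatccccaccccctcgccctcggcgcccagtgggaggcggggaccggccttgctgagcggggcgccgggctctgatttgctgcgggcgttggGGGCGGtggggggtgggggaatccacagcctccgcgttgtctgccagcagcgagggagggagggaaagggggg
Col4a1 and Col4a2: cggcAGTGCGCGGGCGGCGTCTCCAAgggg
The GC content was 35.2% upstream of *Col3a1* and 76.4% upstream of *Col5a1*, against a median of 52.0% over 27025 such windows, 1 a gene. RefSeq windows were found for 35 of the 44 members. Of these 35, 14.3% held a TATA box, 34.3% a CCAAT box and 60.0% a GC box, against 13.0%, 34.5% and 32.9% of all 27025 windows. These are counts of letters and say nothing about the binding of a factor.

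Libraries held 5898286 to 15539811 counts on genes, and collagen genes took 0.0473% to 0.682% of them. The share was highest in the ESC libraries numbered 2. Reads that mapped to several places, which were not counted, made up 43.2% to 45.5% in ESCs, 33.2% to 34.3% in NPCs and 7.62% to 8.90% in the brain regions. *Phf8* was lower in every KO library than in every WT library of the same cell type or region, with 63.2 to 71.2 CPM (counts scaled to the library total) in WT and at most 22.3 in KO ESCs, 41.0 to 43.3 and 14.8 to 16.4 in NPCs, 43.6 to 49.6 and 13.4 to 20.3 in STR, and 38.5 to 46.1 and 14.6 to 20.6 in PFC. Reads on the deleted exons cannot be seen in tables of whole genes. Markers matched the labels: *Pou5f1* and *Nanog* were at 838 to 1010 and 547 to 729 CPM in ESCs, all 8 striatal markers (among them *Drd1* and *Ppp1r1b*) were higher in STR than in PFC, and 9 of 10 progenitor markers were higher in NPCs than in ESCs. Some libraries stood apart. The ESC libraries numbered 2 are described below, STR KO 1 held 223 CPM of a list of hypothalamic genes such as *Oxt* and *Avp* against 29.4 to 50.8 in the other STR libraries, and 243 CPM of a cortical list (1170 to 1390 in PFC) against 512 to 692. STR KO 2 held 244 CPM of a meningeal fibroblast list against 50.6 to 105.

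Levels are given in RPKM, a count scaled to the gene's exon length and to the library's total, so that genes of different length can be set side by side. The length covers all annotated exons of a gene, so the order of genes within a library also depends on the annotation. The plot of levels in all libraries shows 4 different collagen repertoires. In ESCs 24 members had a mean of at least 1 RPKM and 9 a mean of at least 10, in NPCs 20 and 9, in STR 14 and 1, and in PFC 17 and 1. The ESC means pool libraries numbered 1 and 2, which were unlike, so the ESC counts hold for neither number alone. *Col5a1* averaged 5.18 RPKM in the libraries numbered 1 and 74.3 in those numbered 2, and *Col3a1* 1.32 and 43.8. The 1 member above 10 RPKM in both brain regions was *Col6a1*, a chain of the beaded filament collagen VI. Summed over the 44 members, levels were 135 to 937 RPKM in ESCs, 210 to 351 in NPCs, 75.6 to 126 in STR and 62.2 to 89.5 in PFC.

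**Figure D1:**
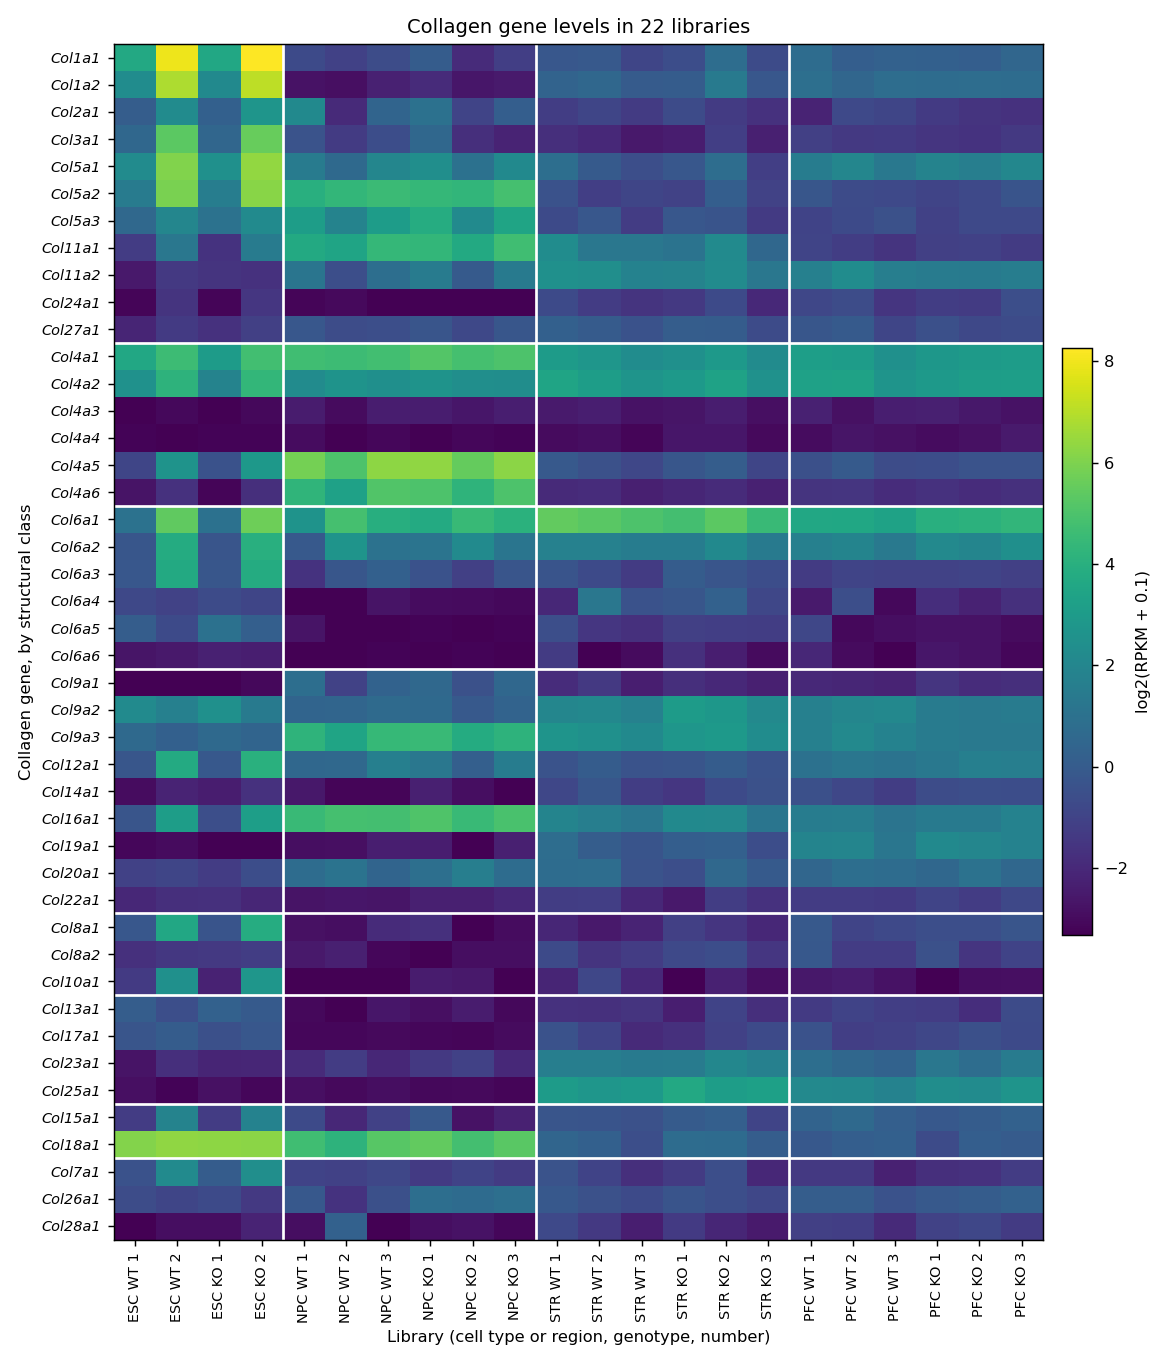
Heat map of log2(RPKM + 0.1) for the 44 collagen genes (rows, grouped by structural class between white lines) in the 22 libraries (columns, grouped by cell type or region). *Col18a1* is high in every ESC library, the fibrillar genes are high in the ESC libraries numbered 2, *Col4a5* and *Col4a6* in NPCs, and *Col25a1* in both brain regions.

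Among the 11 fibrillar genes, *Col1a1*, the chain that makes up most of type I collagen, reached 250 and 306 RPKM in the ESC libraries numbered 2 and stayed under 2 RPKM in every NPC and brain library. *Col5a2* and *Col11a1*, chains of the thin fibrils that nucleate larger ones, were the leading fibrillar genes of NPCs. *Col5a2* ranged from 15.7 to 28.4 RPKM there with a median of 20.6. *Col11a1* ranged from 10.6 to 26.1 with a median of 16.7. In STR the leading fibrillar genes were *Col11a2*, at 2.28 to 5.49 RPKM, and *Col11a1*, at 1.35 to 4.92 RPKM. In PFC they were *Col5a1*, at 2.40 to 4.07 RPKM, and *Col11a2*, at 2.61 to 4.83 RPKM.

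The 6 type IV genes lie as head to head pairs, and the pairs were used differently. *Col4a5* and *Col4a6*, neighbours on chromosome X whose annotated starts are 1308 bases apart, led in NPCs. *Col4a5* had 32.4 to 79.8 RPKM and *Col4a6* 9.85 to 34.5 in the 6 NPC libraries, and both were under 1 RPKM in every brain library. *Col4a1* and *Col4a2* were present in every library, from 4.77 to 35.1 RPKM and from 3.52 to 20.4 RPKM. *Col4a3* and *Col4a4*, known for the kidney filter, had at most 12 and 7 counts in any library. The summed type IV level was 72.8 to 154 RPKM in NPCs, 11.0 to 19.8 in STR and 12.7 to 19.6 in PFC.

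Of the 6 type VI genes, *Col6a1* (chr10:76708792-76726168, minus strand) was the highest in all 18 NPC, STR and PFC libraries. Its level was 6.05 to 28.2 RPKM in NPCs with a median of 15.9, and 23.3 to 44.5 RPKM in STR with a median of 35.6. In PFC it was 10.2 to 19.7 RPKM with a median of 14.0. *Col6a2* had a median of 2.12 RPKM in NPCs, 3.05 in STR and 3.73 in PFC. *Col6a3*, which encodes the largest type VI chain, had medians of 0.70, 0.63 and 0.38 RPKM in the same order. *Col6a4*, *Col6a5* and *Col6a6*, the later found alternative chains, stayed under 2.5 RPKM in every library.

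Among the fibril-associated genes, *Col16a1* and *Col9a3* were highest in NPCs, with 22.7 to 33.0 and 10.7 to 23.1 RPKM. *Col9a1*, the partner of *Col9a3* in type IX collagen, was at 0.38 to 1.69 RPKM in NPCs. *Col19a1*, a basement membrane associated collagen, was under 0.11 RPKM in all ESC and NPC libraries and at 2.21 to 4.37 RPKM in PFC. The transmembrane genes *Col25a1* and *Col23a1* were brain genes here. *Col25a1* had 6.69 to 12.6 RPKM in STR and 3.41 to 6.30 in PFC, against at most 6 counts in any ESC or NPC library. *Col18a1*, the basement membrane collagen from which endostatin is cut, was at 69.9 to 81.9 RPKM in ESCs, 17.8 to 45.0 in NPCs and at most 1.63 RPKM in the brain regions. In bulk tissue, fewer cells of a type and less RNA per cell cannot be told apart.

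NPC libraries with the same number resembled each other across genotypes. *Col6a1* had 6.05, 28.2 and 15.4 RPKM in WT 1, 2 and 3 and 13.3 and 22.3 RPKM in KO 1 and 2, with KO 3 between them. *Col4a6* had 18.7, 9.85 and 34.5 RPKM in WT and 32.9, 18.6 and 32.5 RPKM in KO. In both genotypes the library numbered 2 was the highest for *Col6a1* and the lowest for *Col4a6*.

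The ESC libraries numbered 2 differed from those numbered 1 in both genotypes, mainly in fibrillar and type VI collagens. *Col1a1* had 12.5 RPKM in WT 1 and 12.2 in KO 1, against 250 in WT 2 and 306 in KO 2. *Col3a1*, which forms thin fibrils with type I collagen, had 1.34 and 1.31 RPKM in the libraries numbered 1 and 40.5 and 47.0 in those numbered 2. *Col6a1* had 1.95 and 1.89 RPKM against 42.6 and 52.6. *Col18a1* had 69.9 and 78.0 RPKM against 81.9 and 75.1. The first 3 genes thus separated the numbers completely, while the *Col18a1* levels overlapped. *Col18a1* was still called higher in the libraries numbered 2 in the test below, by 0.17 (log2, SE 0.05, adjusted p = 0.00418, edgeR).

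**Figure D2:**
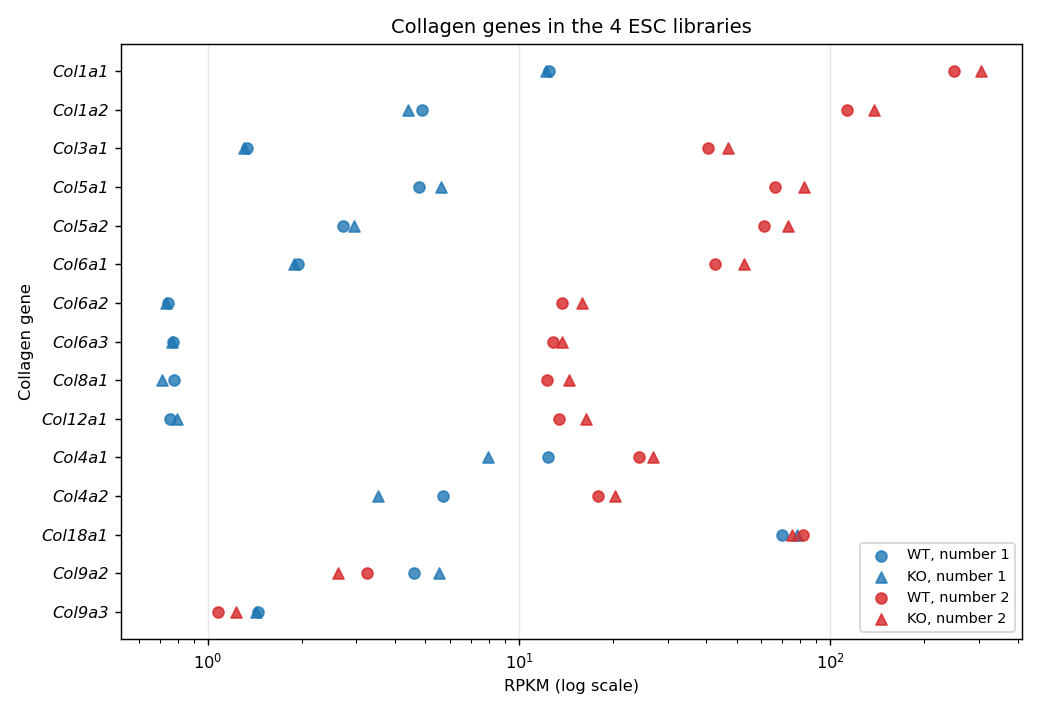
RPKM on a log axis of 15 collagen genes in the 4 ESC libraries, with 1 point a library, colour for the number and shape for the genotype. For *Col1a1* to *Col4a2* both libraries numbered 2 lie to the right of both numbered 1, for *Col18a1* the points overlap, and *Col9a2* lies the other way.

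With edgeR's quasi-likelihood test, genotype as a term and a Benjamini-Hochberg adjusted p-value (FDR) under 0.05, 35 members passed the filter on low counts. Of these, 22 were higher and 2 lower in the libraries numbered 2, where 20.6% and 16.8% of all 15080 genes tested were called higher and lower. The median log2 difference was 2.71 over the 35 members and 0.00 over all genes. By class, 10 of the 11 fibrillar genes rose, along with *Col6a1*, *Col6a2* and *Col6a3*, *Col8a1* and *Col10a1* of the 3 network-forming genes, and none of the 2 transmembrane genes tested. The 6 risen members of smallest p were *Col5a2* (log2 difference 4.65, SE 0.06), *Col5a1* (3.92, SE 0.06), *Col3a1* (5.13, SE 0.07), *Col12a1* (4.35, SE 0.08), *Col6a3* (4.19, SE 0.09) and *Col6a1* (4.72, SE 0.09). The members that fell were *Col6a5* (-0.82, SE 0.16) and *Col9a2* (-0.70, SE 0.15). With 1 residual degree of freedom the p-values rest on a spread shared across genes, and DESeq2 called 21 members higher and 0 lower. Neither fall was called by DESeq2 (adjusted p = 0.108 and 0.152) or by edgeR without ESC KO 1 (0.681 and 0.099), and that of *Col6a5* was also lost without ESC KO 2 (0.0958) or ESC WT 2 (0.588).

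Genes for making and sensing collagen differed in the same direction. Of the folding and modification genes 14 rose and 0 fell among 18 tested, of the processing and cross-linking genes 10 rose and 0 fell among 11, of the degradation genes 5 rose and 0 fell among 6, and of the receptors all 7 tested rose. *Serpinh1*, the collagen chaperone HSP47, rose by 1.83 (log2, SE 0.05). *Lox*, which cross-links fibrils, rose by 4.18 (SE 0.06) and the receptor gene *Ddr2* by 3.45 (SE 0.11). The laminins and other partners of collagen IV were mixed, with 8 risen and 3 fallen among 15 tested. *Lama1*, a laminin chain of early embryos, fell by 0.49 (SE 0.06), and *Lama4*, a laminin chain of mesenchyme and vessels, rose by 3.51 (SE 0.16).

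Markers of other cell types differed with the same numbers. A list of 10 genes of embryonic fibroblasts, the cells used as feeders, summed to 113 and 114 CPM in WT 1 and KO 1 and to 1550 and 1870 CPM in WT 2 and KO 2, and all 10 rose. *Postn* was at 2.85 and 1.98 CPM against 112 and 134 CPM, and *Prrx1* at 6.21 and 6.84 CPM against 127 and 145 CPM. *Dcn* and *Lum* were at 0 to 0.18 CPM in the libraries numbered 1 and at 2.08 to 4.55 CPM in those numbered 2. A mural cell list, which shares *Acta2* with the fibroblast list, summed to 107 and 122 CPM against 941 and 1160 CPM. In it 5 genes rose and 0 fell of 6 tested, and *Abcc9* and *Higd1b* were at 0 in all but KO 2. The 10 stem cell markers summed to 7350 and 7150 CPM against 6210 and 5870 CPM, with 1 risen and 7 fallen. In the endoderm list 4 genes rose and 1 fell of 8 tested, and the sum was 42.5 and 28.3 CPM against 135 and 147 CPM. Its defining factors *Gata6*, *Gata4*, *Sox17* and *Foxa2* were at most at 5.19 CPM in all 4 libraries. The part of fibroblasts in the collagen difference was not tested.

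Because the ESC numbers stand apart, the comparison of NPCs with ESCs was also run against each number alone, an alternative chosen after the levels were seen. Over all libraries, 12 of 40 tested members were higher in NPCs and 20 lower, where 39.3% and 42.9% of 16612 genes were called. Against the libraries numbered 1, 17 were higher and 14 lower. Against those numbered 2, 11 were higher and 23 lower. In these fits 13316 and 12989 genes were called in either direction, against 13667 over all libraries. The counts of members alone therefore do not set collagen genes apart from other genes. In both, 11 members were higher (*Col4a1*, *Col4a3*, *Col4a5*, *Col4a6*, *Col9a1*, *Col9a3*, *Col11a1*, *Col11a2*, *Col16a1*, *Col20a1* and *Col27a1*) and 13 lower, among them *Col1a1*, *Col1a2*, *Col8a1*, *Col17a1* and *Col18a1*. Called in opposite directions against the numbers were 4 members, *Col5a2*, *Col6a1*, *Col6a2* and *Col12a1*. The sign also turned, without a call against the libraries numbered 1, for *Col2a1* (log2 differences 0.60 and -1.88), *Col4a2* (0.355 and -1.74) and *Col15a1* (0.20 and -3.26). *Col6a1* was higher in NPCs than in the libraries numbered 1 by 3.25 (log2, adjusted p = 0.0017) and lower than in those numbered 2 by 1.40 (log2 difference -1.40, adjusted p = 0.0229, both edgeR).

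Of the members with the smallest p in the comparison over all libraries, *Col9a3* was higher in NPCs by 3.85 (log2, SE 0.25, adjusted p = 2.7e-07), *Col20a1* by 2.22 (SE 0.27) and *Col11a2* by 3.20 (SE 0.53). *Col9a1* had 21 to 105 counts in NPC libraries and 0 or 1 in ESC libraries. Lower in NPCs were *Col17a1*, a collagen of epithelial hemidesmosomes (log2 difference -5.18, SE 0.26), *Col13a1* (-4.37, SE 0.46) and *Col6a4* (-4.18, SE 0.52), each with 6 or fewer counts in every NPC library. Of the related genes, 12 folding genes were higher in NPCs and 4 lower of 19. Among the partners of collagen IV 3 were higher and 10 lower of 16, with *Lama1* lower by a log2 difference of -5.26 (SE 0.22).

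Between PFC and NPCs, 17 of 40 tested members were higher in PFC and 13 lower, against 44.8% and 41.6% of all 16631 genes tested. All 4 transmembrane genes were higher in PFC, with *Col25a1* by 7.46 (log2, SE 0.19, adjusted p = 2.7e-13, edgeR) and *Col23a1* by 2.91 (SE 0.24). *Col19a1* was higher by 5.81 (SE 0.33) and *Col1a2* by 4.26 (SE 0.25). The lower members were led by *Col16a1* (-3.33, SE 0.12), *Col5a2* (-5.24, SE 0.18), *Col4a5* (-6.53, SE 0.27), *Col11a1* (-5.66, SE 0.25), *Col4a1* (-1.92, SE 0.11) and *Col18a1* (-5.17, SE 0.25). *Col6a1* was not called (log2 difference -0.26, SE 0.30, adjusted p = 0.423). Of 19 folding genes, 18 were lower in PFC. The endothelial, mural and meningeal fibroblast lists had 10 of 10, 10 of 10 and 10 of 10 genes above 3 counts in every PFC library, and 1, 3 and 1 of 10 in every NPC library.

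Between the brain regions, 16 of the 40 tested collagen genes differed. PFC was higher for 6 and lower for 10, where 20% and 20.2% of all 16028 genes tested were called. *Col6a1* was lower in PFC by a log2 difference of -1.29 (SE 0.19, adjusted p = 1.7e-04, edgeR), and all 6 PFC libraries were below all 6 STR libraries. *Col25a1* (-0.95, SE 0.10), *Col9a3* (-0.95, SE 0.15) and *Col11a1* (-3.12, SE 0.35) were also lower in PFC with no overlap of libraries. *Col23a1* (-0.80, SE 0.15) and *Col6a3* (-0.74, SE 0.20) were lower with overlap, as were *Col9a2*, *Col6a4*, *Col6a5* and *Col27a1*. The calls of *Col9a2*, *Col6a4*, *Col6a5* and *Col27a1* were lost without PFC KO 1, PFC KO 2 or STR KO 2, each of which left 6 lower members. Libraries varied widely for *Col6a4* (12 to 171 counts in STR, 1 to 57 in PFC) and *Col6a5* (16 to 56 and 2 to 39). PFC was higher for *Col12a1*, a fibril surface collagen (1.63, SE 0.12, adjusted p = 3.9e-08), *Col19a1* (1.80, SE 0.22), *Col8a1*, a collagen of vessel walls (1.76, SE 0.27), and *Col5a1* (1.68, SE 0.31), each with no overlap. *Col26a1* (0.55, SE 0.16) and *Col15a1* (0.54, SE 0.20, adjusted p = 0.0386) were higher with overlap. The call of *Col15a1* was lost without PFC KO 3, PFC WT 1, PFC WT 2, STR KO 3 or any 1 of the STR WT libraries (adjusted p up to 0.0922).

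The main basement membrane pair was close between the regions. *Col4a1* differed by 0.26 (log2, SE 0.15, adjusted p = 0.185) and *Col4a2* by 0.05 (SE 0.16, adjusted p = 0.828). The libraries of both regions with the same number and genotype vary together, and with that number as a block *Col4a1* was called (0.27, adjusted p = 0.0283), *Col6a6* was called lower in PFC (-1.10, adjusted p = 0.0482) and *Col9a2* was no longer called (-0.66, adjusted p = 0.0518). With WT libraries alone 6 members were higher in PFC and 5 lower, and with no filter on low counts 6 and 6. Without STR KO 2, the library with the most meningeal fibroblast RNA, 10 members were higher in PFC and 6 lower. *Col1a1* had 1.67 RPKM and *Col1a2* 2.60 RPKM in that library, against 0.44 to 0.85 and 0.79 to 1.35 RPKM in the other STR libraries. Some genes of the marker lists of other cells were also called between the regions, where 20% of all genes tested were higher and 20.2% lower in PFC. Higher in PFC were 2 of 10 meningeal fibroblast genes, 4 of 10 mural genes and 1 of 10 endothelial genes, with 0 lower. The meningeal and endothelial counts do not exceed the share over all genes. Lower in PFC were 4 of 6 choroid plexus genes tested (19.0 to 47.4 CPM summed in PFC, 73.8 to 130 in STR) and 3 of 5 hypothalamic genes tested (15.0 to 33.2 CPM and 29.4 to 223 CPM), with 0 higher. The part of these cells in the collagen differences was not tested. Of the related genes, 4 of 9 processing genes were lower in PFC, among them *Adamts3*, which trims procollagens (-2.01, SE 0.13), and of 16 partners of collagen IV 2 were higher and 4 lower, with *Lamb1* lower (-1.34, SE 0.12).

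Ratios between genes for chains that assemble together differed between some tissues and overlapped between others. These ratios of RPKM were formed after the levels had been seen and are given with no test. Their size rests on the annotated exon lengths, such as 6563 bases for *Col1a1* and 12426 for *Col1a2*, or 4380 for *Col6a1* and 8326 for *Col6a2*. They are therefore read between libraries, and not as numbers of transcripts of 1 chain for each of the other. *Col6a1* over *Col6a2* was 2.57 to 3.32 in ESCs, 4.51 to 7.99 in NPCs, 8.74 to 13.6 in STR and 3.25 to 4.49 in PFC, so that the STR libraries lay above all others. *Col4a1* over *Col4a2* was 1.32 to 2.26 in ESCs and 4.06 to 6.48 in NPCs, and 0.723 to 0.848 in STR and 0.818 to 0.926 in PFC, which overlapped. *Col5a1* over *Col5a2* was 0.0714 to 0.244 in NPCs, 0.896 to 2.58 in STR and 3.69 to 8.19 in PFC, and the ESC values, 1.09 to 1.91, lay within those of STR. *Col11a1* over *Col11a2* ran the other way, with 6.19 to 18.3 in NPCs, 0.447 to 0.973 in STR and 0.068 to 0.145 in PFC, while ESCs ranged from 0.959 to 12.7 and overlapped NPCs and STR. *Col9a2* over *Col9a3* was 2.13 to 3.88 in ESCs, 0.0616 to 0.121 in NPCs and overlapped between STR (0.622 to 1.2) and PFC (0.907 to 1.23). *Col1a1* over *Col1a2*, which make type I collagen together, was 2.21 to 2.77 in all 4 ESC libraries although *Col1a1* differed 23.7-fold between the numbers.

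**Figure D3:**
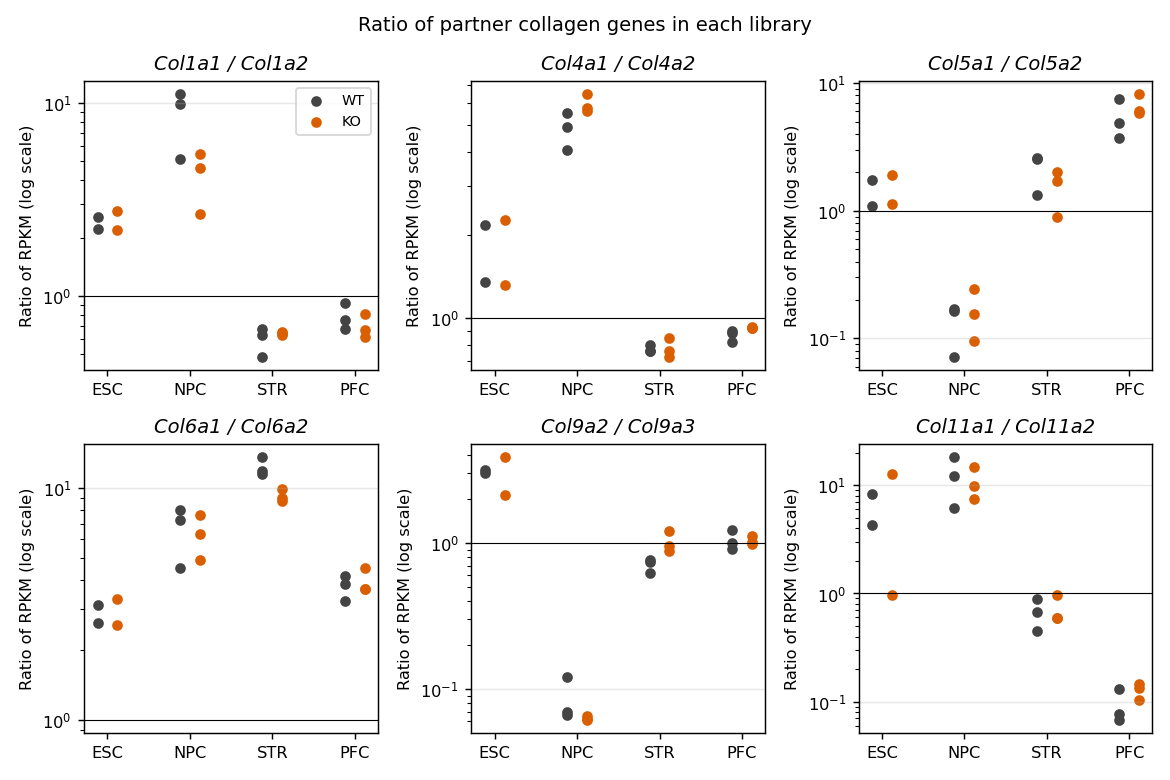
Ratio of RPKM of 6 pairs of partner collagen genes (log axes) in each library, by cell type or region, with WT in grey, KO in orange and a line at 1. The STR points lie highest for *Col6a1* over *Col6a2*, the NPC points highest for *Col4a1* over *Col4a2*, and the STR and PFC points do not overlap for *Col5a1* over *Col5a2* or *Col11a1* over *Col11a2*.

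In the main tests, which had no block, KO and WT differed in 1 collagen gene in 1 of the 4 comparisons. In PFC, *Col6a1* had 12.3, 11.8 and 10.2 RPKM in WT and 15.7, 17.1 and 19.7 RPKM in KO. Every KO library was above every WT library, with a mean of 11.5 ± 1.10 RPKM in WT and 17.5 ± 2.02 RPKM in KO (SD, n = 3 each). The log2 fold change was 0.59 (SE 0.10), or 1.5-fold, with an adjusted p of 0.0263 by edgeR's quasi-likelihood test. The gene had 286 to 595 counts in WT and 606 to 703 in KO libraries. Of 38 members tested in PFC 1 was higher and 0 lower, where 0.163% of 15364 genes were called higher and 0.475% lower. The call was lost when PFC KO 2, PFC KO 3 or PFC WT 2 was left out (adjusted p 0.122, 0.204 and 0.0842, with log2 fold changes of 0.61, 0.50 and 0.62).

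**Figure D4:**
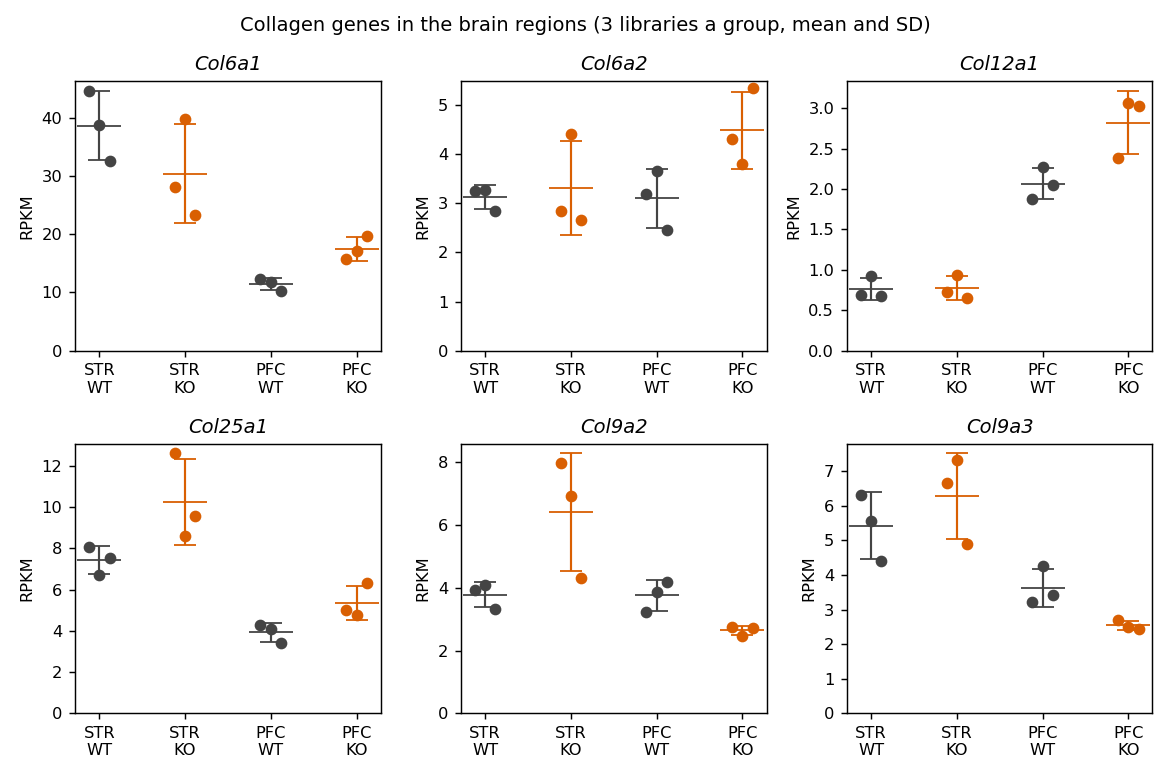
RPKM of 6 collagen genes in STR and PFC, with WT in grey and KO in orange, 1 point a library (3 a group) and bars at the mean ± SD. For *Col6a1* all 3 PFC KO points lie above the PFC WT points while the STR groups overlap, and for *Col9a2* KO lies above WT in STR and below WT in PFC.

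Other members of PFC had unadjusted p under 0.05 and missed the threshold. *Col6a2*, the partner of *Col6a1*, had 3.20, 3.65 and 2.46 RPKM in WT and 4.30, 3.81 and 5.34 in KO. Its groups did not overlap, and its log2 fold change was 0.50 (SE 0.15, adjusted p = 0.188). *Col6a3*, the largest chain, was not among the members with an unadjusted p under 0.05. It had 0.30, 0.42 and 0.38 RPKM in WT and 0.39, 0.41 and 0.36 RPKM in KO, which overlapped. *Col12a1* had 1.88, 2.27 and 2.05 RPKM in WT and 2.38, 3.06 and 3.03 RPKM in KO (0.44, SE 0.12, adjusted p = 0.134). *Col25a1* had 4.30, 4.08 and 3.41 RPKM in WT and 5.0, 4.75 and 6.30 RPKM in KO (0.43, SE 0.12, adjusted p = 0.14). Both had every KO library above every WT library.

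Of the type IX genes, *Col9a2* and *Col9a3* had lower values in PFC KO, and *Col9a1*, with 4 to 11 counts a library, did not pass the filter and had 0.124 to 0.152 RPKM in WT and 0.173 to 0.246 RPKM in KO. *Col9a2* had 3.23, 3.86 and 4.20 RPKM in WT and 2.74, 2.47 and 2.73 RPKM in KO (-0.51, SE 0.15, adjusted p = 0.188). *Col9a3* had 3.22, 4.26 and 3.42 RPKM in WT and 2.70, 2.50 and 2.45 RPKM in KO (-0.53, SE 0.15, adjusted p = 0.15). Neither pair of groups overlapped. *Col11a2*, a fibrillar chain of cartilage, had 3.25, 4.83 and 3.01 RPKM in WT and 2.72, 2.61 and 2.87 RPKM in KO, also with no overlap (-0.47, SE 0.16, adjusted p = 0.272). The transmembrane gene *Col23a1* had 1.73, 1.38 and 1.15 RPKM in WT and 2.29, 1.64 and 2.69 RPKM in KO, which overlapped (0.61, SE 0.20, adjusted p = 0.242). In all, 4 of the 38 members had every KO library above and 4 every KO library below every WT library, where 17.1% of all genes tested did not overlap. At an unadjusted p under 0.05, 5 members were higher and 3 lower (21.1% of the members, 11.2% of all genes), and the median log2 fold change was 0.01 over the members and -0.02 over all genes.

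Of the related genes in PFC, the receptor gene *Ddr1* fell, from 86.2, 90.1 and 82.9 CPM in WT to 65.4, 67.9 and 63.4 CPM in KO (log2 fold change -0.41, SE 0.07, adjusted p = 0.0286, edgeR). It was the only one called among 7 receptors, 19 folding genes, 9 processing genes, 5 degradation genes and 16 partners of collagen IV. The vascular and meningeal lists overlapped between the genotypes. The meningeal fibroblast list summed to 151 to 205 CPM in WT and 142 to 169 CPM in KO, the mural list to 261 to 299 and 233 to 279 CPM, and the endothelial list to 335 to 422 and 288 to 357 CPM, and 0 genes of these lists were called. The list of 10 progenitor genes had 0 called, with a median log2 fold change of -0.107 against -0.02 over all genes. In it *Olig2*, also a gene of the oligodendrocyte lineage, had 40.5, 58.6 and 48.4 CPM in WT and 34.6, 29.3 and 34.8 CPM in KO (-0.60, SE 0.13, adjusted p = 0.0701, edgeR). *Sox1* and *Sox2* were also lower in every KO library. *Egfr* was higher in every KO library, with 25.8, 26.3 and 22.9 CPM in WT and 29.8, 26.9 and 26.8 CPM in KO. The other genes of the list overlapped. The stem cell list, of which 4 of 10 genes were tested in PFC, summed to 90.4 to 94.4 CPM in WT and 81.6 to 89.2 CPM in KO. It shares *Sox2* with the progenitor list, and *Sox2* made up most of these sums, with 54.6 to 59.4 CPM in WT and 51.7 to 53.7 CPM in KO. The part of these in the collagen values was not tested.

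In STR, 0 of 37 tested members were called, as were 0% of 15476 genes in either direction by edgeR's quasi-likelihood test. The deleted gene *Phf8* itself missed the threshold there (log2 fold change -1.37, SE 0.15, adjusted p = 0.0956). A lack of calls in STR therefore does not show a lack of difference. At an unadjusted p under 0.05, 2 members were higher (5.41% of the members, 8.70% of all genes) and 0 lower. *Col9a2* had 3.94, 4.09 and 3.33 RPKM in WT and 7.99, 6.92 and 4.32 RPKM in KO (0.77, SE 0.22, adjusted p = 0.414). *Col25a1* had 8.04, 6.69 and 7.53 RPKM in WT and 12.6, 8.61 and 9.57 RPKM in KO (0.47, SE 0.14, adjusted p = 0.415). Both had every KO library above every WT library, which held for 2 members above and 0 below and for 13.2% of all genes either way. *Col6a1* had 44.5, 38.7 and 32.6 RPKM in WT and 28.1, 39.8 and 23.3 RPKM in KO, which overlapped (-0.33, SE 0.20, adjusted p = 0.713). *Col6a3* (0.57, SE 0.30, adjusted p = 0.653) and *Col18a1* (0.51, SE 0.30, adjusted p = 0.688) also stood among the 5 smallest p. The highest *Col9a2* and *Col25a1* values in STR were in KO 1, the library with hypothalamic RNA. DESeq2, which called 53 genes in STR, called 0 members, and so did edgeR's exact test, which called 93 genes.

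**Figure D5:**
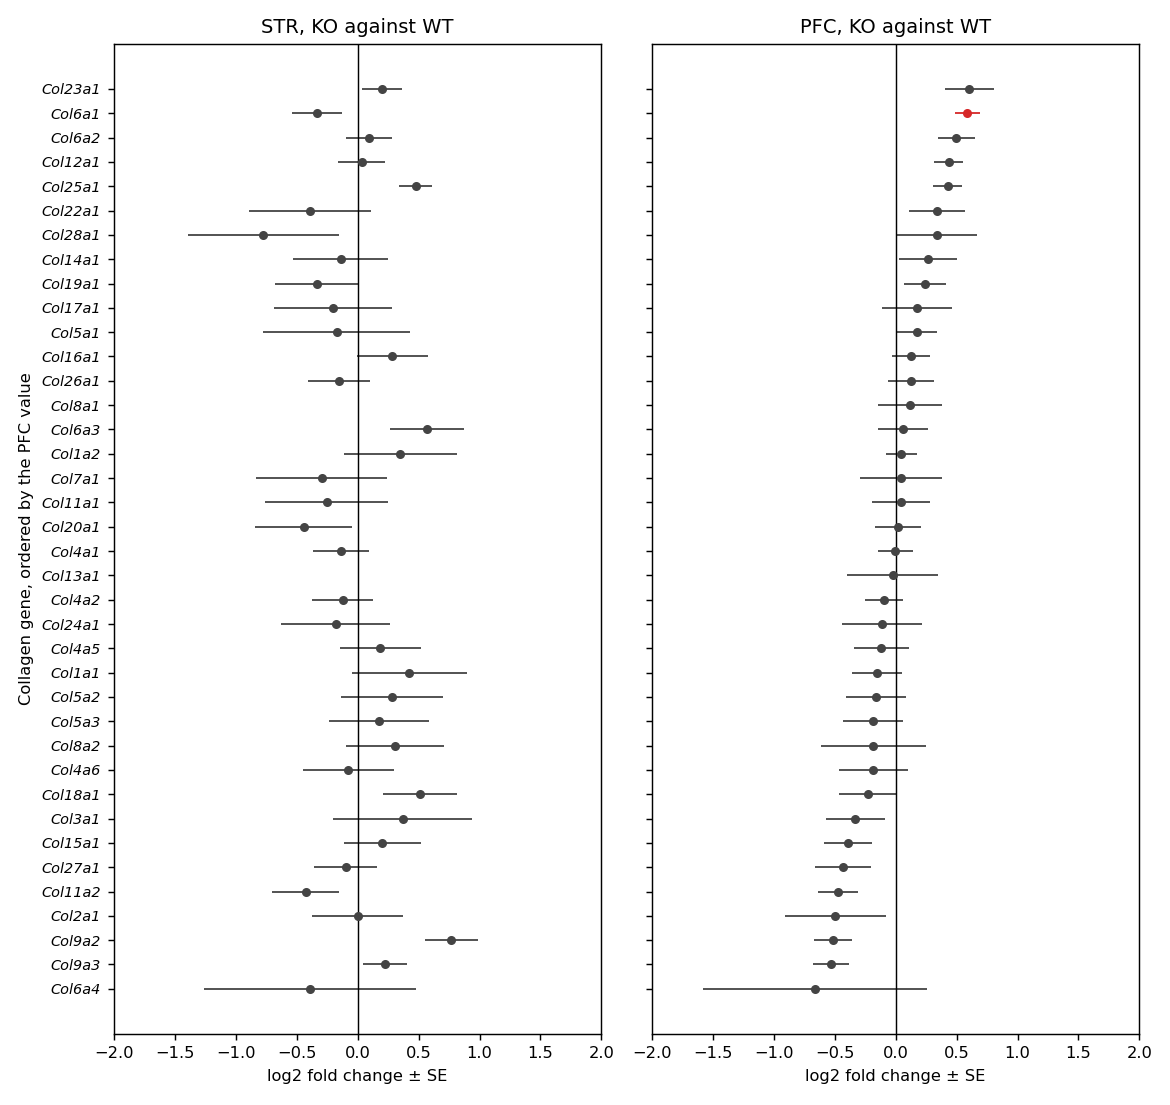
Log2 fold change of KO against WT with its SE for the 38 collagen genes tested in PFC, in STR (left, where not all of them were tested) and PFC (right), ordered by the PFC value. The member with an FDR under 0.05, *Col6a1* in PFC, is red, and its STR value lies below 0.

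The difference between regions in the KO effect was tested as an interaction over the 12 brain libraries. It was called for 0 of 40 members, and for 0.00624% of 16028 genes in the direction of a higher effect in PFC and 0% in the other. At an unadjusted p under 0.05, 1 member was higher and 2 lower, and DESeq2 also called 0 members. *Col9a2* had the smallest p, with an interaction of -1.25 (log2, SE 0.28, adjusted p = 0.384), followed by *Col6a1* (0.95, SE 0.25, adjusted p = 0.574) and *Col9a3* (-0.72, SE 0.25, adjusted p = 0.647). *Col12a1* (0.43, SE 0.22) and *Col8a1* (-0.99, SE 0.52) had the next smallest p. Without STR KO 3 the *Col9a2* interaction was called (-1.48, adjusted p = 0.0414). For *Col6a1* the adjusted p was 0.0581 with DESeq2 and 0.0593 to 1 when single libraries were left out, so the difference between the regions did not pass the threshold in any of these.

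In NPCs, 0 of 30 tested members were called by edgeR's quasi-likelihood test, where 0% of 14351 genes were called higher and 0.00697% lower, the latter being *Phf8* itself. At an unadjusted p under 0.05, 3 members were higher and 0 lower (10% of the members, 3.03% of all genes). *Col26a1*, a collagen first found in testis and ovary, had 0.83, 0.23 and 0.62 RPKM in WT and 1.74, 1.53 and 1.80 RPKM in KO. *Col4a1* had 26.0, 24.5 and 26.5 RPKM in WT and 35.1, 28.8 and 32.4 RPKM in KO. *Col22a1* had 0.0530, 0.0604 and 0.0558 RPKM in WT and 0.105, 0.103 and 0.154 RPKM in KO, from 6 to 18 counts. These 3 were the members with every KO library above every WT library, a separation seen in 8.26% of all genes in either direction. Their log2 fold changes were 1.60 (SE 0.41), 0.33 (SE 0.09) and 1.09 (SE 0.33), with an adjusted p of 1 each. *Col18a1* (0.44, SE 0.30) and *Col20a1* (0.41, SE 0.30) had the next smallest p. DESeq2 and edgeR's exact test also called 0 members, and so did the quasi-likelihood test with the library number as a block.

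In ESCs, 0 of 35 tested members were called, and 0% of 15080 genes in either direction by edgeR's quasi-likelihood test. The deleted gene *Phf8* was itself not called (log2 fold change -1.79, SE 0.22, unadjusted p = 0.00106 by the same test). A lack of calls in ESCs therefore does not show a lack of difference. No member had an unadjusted p under 0.05, against 1.13% of all genes, and 30 members had a fold change above and 5 below 0 (median log2 fold change 0.23, against 0.01 over all genes). DESeq2 and the exact test called 0 members. These fits leave the difference between the numbers in the spread. With the number as a block and 1 residual degree of freedom, 6 members were called higher in KO and 0 lower, among 513 genes called. The embryonic fibroblast list also differed between the genotypes in the libraries numbered 2, with 1550 CPM in WT and 1870 CPM in KO. In those numbered 1 it had 113 and 114 CPM. The part of this difference in the 6 calls was not tested. In the main fit, with no block, *Col6a5*, a minor type VI chain, had the smallest p (log2 fold change 0.99, SE 0.44, adjusted p = 1, edgeR). It had 0.951 and 0.505 RPKM in WT and 1.90 and 1.02 RPKM in KO, and was among those called with the block (adjusted p = 2.3e-06, edgeR). *Col6a5* and *Col8a2* were the 2 members with both KO libraries above both WT libraries, a separation seen in 20.8% of all genes in either direction. The SE of *Col1a1* in the main fit, whose levels differed between the numbers, was 2.17, around a log2 fold change of 0.30. Other values among the 5 smallest p of the main fit were *Col13a1* (0.34, SE 0.35), *Col26a1* (-0.33, SE 0.37), *Col17a1* (-0.28, SE 0.31) and *Col8a2* (0.36, SE 0.42). No folding, processing, degradation or receptor gene and no partner of collagen IV was called in KO ESCs, NPCs or STR.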

How the data were processed

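The authors aligned reads from libraries made with the TruSeq RNA kit with STAR to mm10 and counted them per Ensembl gene with HTSeq. The deposited values are raw counts, with no normalization, in 1 table a library. The processing notes also name CASAVA 1.7. ESC and NPC tables are marked as counted without strand, and the setting for the brain tables is not given in the sources used here. The 5 summary lines of each table were left out of totals and tests.

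Members, gene lists and structural classes were chosen with earlier results of these data known. Gene names, positions and exon lengths came from GENCODE M21 on GRCm38 (37607 of 39179 identifiers matched, 99.709% of counts). Of the members, 10 share exon bases with another counted gene, none over 10% of its exon length. RPKM and CPM were computed here from the counts with TMM factors over all 22 libraries. Tests used edgeR 4.0.16 in R 4.3.3 (robust quasi-likelihood fit, TMM, filterByExpr), adjusted by Benjamini-Hochberg over all genes tested, with an FDR under 0.05. KO comparisons used the libraries of 1 cell type or region with no block, and tissue comparisons had genotype as a term. Alternatives were DESeq2 1.42.0, edgeR's exact test, RLE size factors, no filter, a log2 fold change beyond 1, WT only, the number as a block, and each library left out. Scripts were tested on simulated counts. Replicates of a group differed by more than counting error (a chi-square of 1.83 to 37.3 times its degrees of freedom).

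Genes named in each comparison were members with an FDR under 0.05 and the 5 smallest p (KO and interaction), up to 6 higher and 6 lower of smallest p (others), members whose KO call changed under an alternative, up to 3 genes a direction of each related list, and markers with their list. Any member may be named with its level. Same-numbered libraries were taken as paired where, with 3 or more pairs, every correlation of their deviations from group means was over 0.1. It was 0.47 to 0.69 between WT and KO NPCs and 0.13 to 0.35 between PFC and STR, and -0.03 to 0.12 between WT and KO in STR and in PFC, which were not taken as paired. The main tests used no block even where libraries were taken as paired, so their SE and p-values leave that pairing out. Fits with the number as a block are given as alternatives. ESCs have 2 pairs, too few for this rule. Depth limits rare members: counts under about 10 a library carry a large counting error.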

Additional observations from a re-analysis of the deposited data

Results flagged for a closer look

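*Col9a2*, a chain of type IX collagen, had every KO library above every WT library in STR (log2 fold change 0.77) and every KO library below every WT library in PFC (-0.51), so the 2 regions moved in opposite directions. Neither fold change passed the FDR threshold (adjusted p = 0.414 and 0.188, edgeR), and the interaction of genotype and region did not either (-1.25, adjusted p = 0.384), with adjusted p from 0.0414 (without STR KO 3) to 0.985 over the alternatives run. *Col9a3* had values in the same directions, with overlap in STR.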

How the results depend on the processing

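Of the counts of collagen genes called, those for KO against WT in STR and NPCs were 0 under every alternative run. In PFC the count of 1 became 3 with edgeR's exact test (*Col6a1*, *Col12a1* and *Col25a1*), 4 with no filter (with *Col6a2* in addition) and 0 when a log2 fold change beyond 1 was also asked, and was 0 to 1 when single libraries were left out. The count for ESCs was 0 except in the fit with a replicate block, which called 6 members higher in KO (*Col2a1*, *Col5a1*, *Col5a2*, *Col6a1*, *Col6a5* and *Col12a1*) among 513 genes. Same-numbered ESC libraries varied together (correlation 0.845, the same for both numbers by construction), and that block lowered the biological coefficient of variation from 31.42% to 4.37%. With 2 pairs and no label that ties the numbers to a culture or batch, that fit was kept as an alternative. In STR the replicate block called 0 members, and in PFC 1. Of 16 members called between PFC and STR, 8 had a log2 difference beyond 1, and leaving out single libraries gave 12 to 18. The interaction gave 0 to 1 members when single libraries were left out (*Col9a2* without STR KO 3). Counts were 22 to 24 for the ESC numbers, 29 to 33 for NPCs against ESCs and 28 to 31 for PFC against NPCs. For NPCs against ESCs the replicate block called 12 members higher and 16 lower in NPCs (12 and 20 without it), but it ties ESC numbers to NPC numbers, which nothing pairs. Between PFC and STR it changed only the calls named above, and it changed none in NPC KO, PFC against NPCs or the interaction. Over named members, 973 alternative values kept direction and side of the threshold, 12 newly passed it, 18 no longer passed it and 10 changed sign without having been called. Those 10 were the KO differences of *Col2a1*, *Col5a1*, *Col5a2*, *Col6a1* and *Col12a1* in ESCs, each without ESC KO 2 and without ESC WT 1, which leaves unequal numbers of the 2 kinds of ESC library. Where leaving out an ESC library left 1 in a genotype, that library was assumed to vary like the others.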
